A study of Mus musculus with 6 samples.

Results

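The cytosolic ribosomal protein genes encode the proteins of the ribosome that works outside mitochondria, and were chosen by symbol: Rpl, Rps or Rplp with the number of a ribosomal protein, or Rpsa. Pseudogene symbols ending in -ps, mitochondrial ribosomal proteins and kinases such as Rps6ka1 were left out. The rule found 89 of the 55995 features in the deposited table, 53 for the large ribosomal subunit and 36 for the small subunit, and used no measured value. A further 322 features with Rpl or Rps symbols ending in -ps were left out. RNA came from the gastrocnemius, a fast calf muscle, of NSG mice, an immunodeficient strain without mature lymphocytes, all of which carried a subcutaneous left-flank xenograft of unmodified (WT) MDA-MB-231, a human triple-negative breast cancer line. In the 3 radiotherapy libraries the tumour, at about 800 mm3, had received 1 dose of 10 Gy of 6 MV X-rays at 6 Gy/min. The muscle of the side opposite the tumour was taken on day 3. The 3 control libraries came from tumour-bearing mice labelled only as control. No label gives an age or a sham procedure. Nothing in the labels ties a library to its own mouse, and the p-values below therefore reflect the variation among these 6 libraries, part of which may be technical. Levels are given in TPM, in which each library sums to 1000000 and a gene's value is scaled by its length.

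Each cytosolic ribosome joins a small subunit, which reads the mRNA, to a large subunit, which forms the peptide bonds. Their proteins are made in near-equal numbers and assembled on ribosomal RNA in the nucleolus. Most of their mRNAs begin with a C followed by an unbroken run of pyrimidines, the 5′ terminal oligopyrimidine (TOP) tract, through which mTORC1 and the RNA-binding protein LARP1 control their translation. Skeletal muscle is unusual in that it uses a tissue-specific form of 1 large subunit protein, RPL3L, in place of much of its RPL3.

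The tract that most of these mRNAs share could be read at the annotated starts of only some genes. RefSeq start windows (build GRCm38.p6) were matched for 64 of the 89 genes, with 76 starts. An unbroken run of at least 5 C or T letters on the gene's strand covered the start base in 21 of the 76 (27.6%), against 10.1% of the 32851 starts in that table. The first 6 sequences below hold such a run and the last 3 do not. They are shown 5′ to 3′ from 15 bases before the start to the 15 bases beginning at it, with capitals marking the run.
Rps6, chr4:86857353-86857382, minus strand: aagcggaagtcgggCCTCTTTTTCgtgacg
Rplp2, chr7:141447636-141447665, plus strand: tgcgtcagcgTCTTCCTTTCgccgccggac
Rps18, chr17:33955651-33955680, minus strand: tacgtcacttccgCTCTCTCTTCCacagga
Rpl15, chr14:18270972-18271001, minus strand: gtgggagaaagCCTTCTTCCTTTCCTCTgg
Rpl7a, chr2:26910792-26910821, plus strand: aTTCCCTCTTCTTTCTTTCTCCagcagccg
Rps27, chr3:90213634-90213663, minus strand: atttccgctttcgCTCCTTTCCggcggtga
Rps27l, chr9:66946071-66946100, plus strand: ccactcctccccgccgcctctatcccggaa
Rpl3l, chr17:24727811-24727840, plus strand: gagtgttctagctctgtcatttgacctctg
Rps7, chr12:28635939-28635968, minus strand: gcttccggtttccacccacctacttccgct
The run was 10 bases long in Rps6 and Rplp2, 11 in Rps18, 17 in Rpl15, 21 in Rpl7a and 9 in Rps27. Neither paralogue shown, Rps27l nor Rpl3l, had a run of 5 at its annotated start, whereas the parent gene Rps27 did. Rps7, whose listed level is described with the separated genes, has a run of only 3 at the annotated start. Over the 300 bases around each start, on either strand, CCGGAAG, the core bound by ETS factors such as GABP, occurred in 35.5% of the ribosomal protein starts against 8.86% of all starts and 17.8% of the starts of tested genes. AAGATGG, a core of the YY1 motif, occurred in 15.8% against 6.34% and 7.34%. TATAAA occurred in 10.5% against 13.6% and 7.53%. Such matches describe letters and not bound sites.

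Radiotherapy replicate 3 stood apart from the other 2 radiotherapy libraries. Over the 11938 features whose mean reached 1 TPM, its log2 values correlated with radiotherapy replicates 1 and 2 at 0.85 and 0.851, whereas those 2 correlated with each other at 0.968 and the controls among themselves at 0.938 to 0.95. With the controls, replicate 3 correlated at 0.889 to 0.903, and radiotherapy replicates 1 and 2 at 0.903 to 0.922. Its summed neutrophil markers (6 genes) reached 2760 TPM, against 69.4 to 170 in the controls and 10.6 and 17.5 in the other 2 radiotherapy libraries. The sum of 10 myofibre markers, such as Ckm and Acta1, was 98100 to 107000 TPM in the controls, so the labelled tissue was met. That sum was 142000 and 148000 in radiotherapy replicates 1 and 2 and 80700 in replicate 3. In replicates 1 and 2, Acta1, Mylpf and Pvalb lay well above all controls and Ckm and Tnnt3 slightly above. Myh4 exceeded all controls only in replicate 2 and Myh2 only in replicate 1, and Myh1, Atp2a1 and Ttn lay within the control range. None of the markers was at 0 in all libraries. In whole muscle, fewer cells of a type and less RNA per cell cannot be told apart. The part of these differences in the ribosomal protein values was not tested, and results are given with and without radiotherapy replicate 3.

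Ribosomal protein mRNAs made up several percent of all TPM in this muscle, with their highest shares in control replicate 2 and radiotherapy replicate 3. The 89 genes summed to 6.97%, 9.48% and 7.04% of TPM in control replicates 1 to 3 and to 5.46%, 5.05% and 8.97% in radiotherapy replicates 1 to 3. The highest was thus a control and the lowest a radiotherapy library, and the groups overlapped through radiotherapy replicate 3. The means were 7.83% ± 1.43 (SD, n = 3) in control and 6.49% ± 2.15 (SD, n = 3) in radiotherapy. Large subunit genes gave 4.04%, 5.46% and 4.03% in control and 3.13%, 2.93% and 5.14% in radiotherapy. Small subunit genes gave 2.93%, 4.03% and 3.01% in control and 2.33%, 2.13% and 3.83% in radiotherapy. Both subunits ordered the libraries in nearly the same way, with radiotherapy replicates 1 and 2 lowest.

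The most abundant large subunit mRNA, by the mean over the 6 libraries, was Rplp1 at 3460 TPM, which encodes an acidic protein of the stalk that recruits elongation factors. Rpl36 (2580 TPM) was also among the 3 highest. In the small subunit the highest were Rps15 (2480 TPM), which reaches the decoding site, Rps27 (2370 TPM) and Rps29 (2180 TPM), both zinc-binding proteins. With near-identical copies added, described next, the order was Rps29 (2960 TPM), Rps27 (2740 TPM), Rps28 (2510 TPM) and Rps15 (2480 TPM). At the other end stood Rpl5 (10.1 TPM), Rpl7l1 (15.6 TPM) and Rpl12 (19.3 TPM) in the large subunit and Rps4l (4.56 TPM), Rps18 (11.1 TPM) and Rps12l1 (40.3 TPM) in the small. Rpl5, Rpl12 and Rps18 are core ribosomal proteins, while Rpl7l1, Rps4l and Rps12l1 are paralogues or copies. Of the 89 genes, 83 had a mean of at least 1 TPM and were tested. The 6 that did not were Rpl39l, Rpl6l, Rps3a2, Rps3a3 and, at 0 in every library, Rpl10l and Rpl32l.

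The spread in listed level was much narrower once near-identical copies were counted with their genes. A search of the coding sequences of 83 of the genes (GENCODE vM21) against all transcripts found 550 other genes, mostly processed pseudogenes, with at least 95% identity over at least 80% of the coding sequence. At least 1 such copy was found for 74 genes and none for 9. Rps18, a protein of the small subunit head, was listed at 15.23, 9.93 and 11.54 TPM in the controls and 8.05, 8.71 and 13.28 TPM after radiotherapy. Its pseudogene Rps18-ps6 was listed at 1507, 1726 and 1506 TPM in the controls and 1026, 1020 and 1658 TPM after radiotherapy, so that 99.3% of the summed level lay in copies. Rpl5 was listed at 11.07, 7.49 and 10.37 TPM in the controls and 8.27, 8.06 and 15.22 TPM after radiotherapy, while its copy Gm15500 was listed at 592.61, 634.08 and 645.78 TPM and 366.22, 379.94 and 763.43 TPM. The pseudogene rows thus carried the level of these genes in every library. For Rpl12, 98.3% of the summed level lay in copies, mainly Gm10275, and for Rpl21, which has 57 copies, 91.8%. Among the 77 protein-coding members other than the named paralogues, control means ran from 9.64 TPM (Rpl5) to 3600 TPM (Rplp1) as listed, with quartiles of 520, 824 and 1330 TPM and 4 genes under 100 TPM. With copies added, they ran from 152 TPM (Rpl3) to 3600 TPM, with quartiles of 802, 1200 and 1540 TPM and 0 genes under 100 TPM. A level or a difference listed for a gene with copies is therefore uncertain. The share of TPM in copies or the value with copies added is given below for the genes where it is large.

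**Figure D1:**
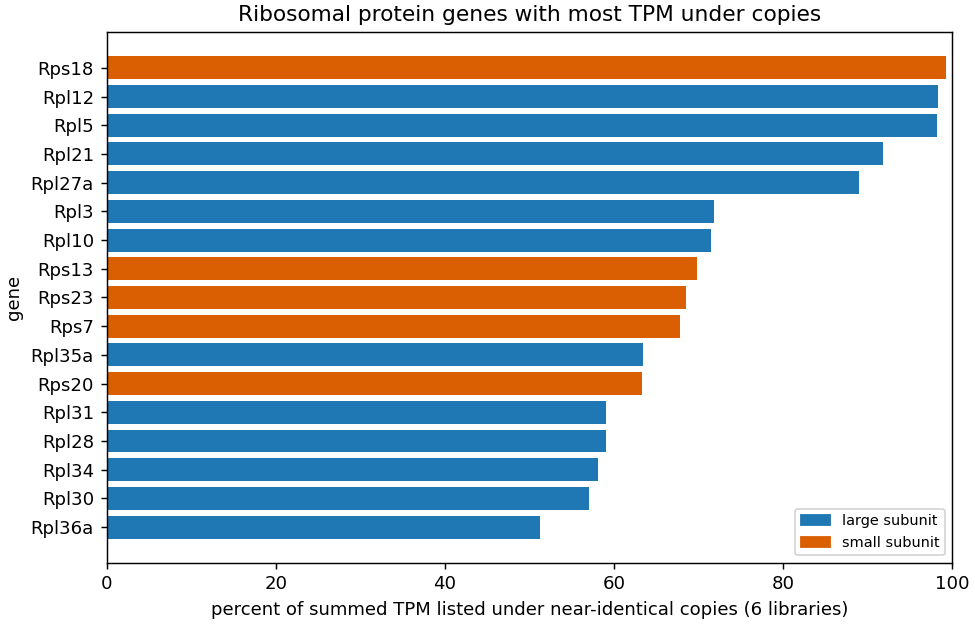
Each bar gives the percent of a gene's TPM, summed over the 6 libraries and its near-identical copies, that is listed under the copies, for the 17 genes above 0 TPM where it is over 50%; large subunit genes are blue and small subunit genes orange. Rps18, Rpl12 and Rpl5 lie at 99.3%, 98.3% and 98.2%.

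The comparison of radiotherapy with control asked whether the muscle transcriptome differed after the distant tumour was irradiated, and no ribosomal protein gene passed its test. With limma and an adjusted p of 0.05, 0 of the 83 tested genes were higher and 0 lower, against 5 higher (0.0419%) and 2 lower (0.0168%) of all 11938 features. At an unadjusted p of 0.05, 1 was higher and 4 lower, against 1.18% and 13.3% of all features. In 4 genes (4.82%) every radiotherapy library lay below every control, against 19.3% of all features, and in 1 every radiotherapy library lay above, against 1.73%. Of the 83 log2 differences, 73 (88%) were below 0, as were 78.5% of all features. The median difference was −0.28 on the log2(TPM + 1) scale (quartiles −0.42 and −0.17), against −0.36 over all features. It was −0.13 without radiotherapy replicate 2, −0.16 without control replicate 2 and −0.082 when rescaled without mitochondrial and the 20 most abundant genes. Large subunit genes had a median of −0.28 and small subunit genes of −0.30. The sign depends on the scaling between libraries: with median-of-ratios scaling the median over all features moved from −0.36 to −0.017 and that of the ribosomal protein genes to 0.14. Under both scalings the ribosomal protein median lay above that of all features, whereas under quantile normalisation it lay below, at −0.12 against −0.016. With median-of-ratios scaling 0 genes passed the limma threshold (against 0.0251% higher and 0.00838% lower of all features), and the groups were separated in 4 genes upward and 3 downward, against 6.94% and 9.95%. With copies added 0 passed (against 0.0422% and 0.0169%), and the groups were separated in 1 gene upward and 1 downward, against 1.74% and 19.3%. The 1 upward is Rps12l1, a copy of Rps12 that was kept as a gene of its own, and the sum of that pair overlapped between the groups. The 1 downward is Rps27l, for which the search found no copy to add.

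**Figure D2:**
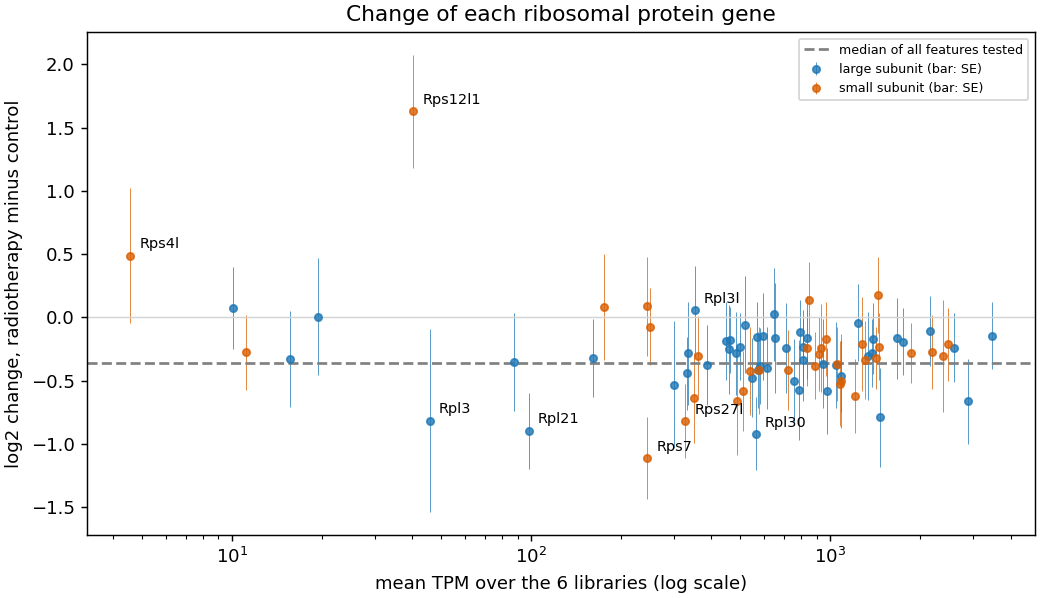
Each point is a tested ribosomal protein gene (large subunit blue, small subunit orange), with its mean TPM over the 6 libraries on a log horizontal axis, its log2 difference between radiotherapy and control on the vertical axis and a bar of 1 SE to each side. Most points lie between 0 and the dashed median of all features at −0.36 or near it, and Rps12l1 and Rps7 lie farthest from 0.

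Library by library, the ribosomal protein genes moved as a block, and radiotherapy replicates 1 and 2 lay opposite to replicate 3. The median log2 ratio of the 83 genes to the control mean was −0.14, 0.26 and −0.14 in the 3 controls. It was −0.48 and −0.64 in radiotherapy replicates 1 and 2 and 0.23 in replicate 3. Replicate 3 thus sat close to control replicate 2, and the other 2 radiotherapy libraries below all controls. In those 2 libraries the middle of all features lay about as low, with medians of −0.53 and −0.61, whereas in replicate 3 it lay at −0.01. The interquartile range of the ribosomal protein genes in the radiotherapy libraries was 0.29, 0.34 and 0.26, against 0.78, 0.77 and 0.85 for all features. In the controls it was also narrower, at 0.11, 0.24 and 0.24 against 0.32, 0.49 and 0.35. Most ribosomal protein genes are highly expressed, and features of like level were not compared. Large subunit genes stood at −0.48, −0.65 and 0.23 in the radiotherapy libraries and small subunit genes at −0.48, −0.63 and 0.21. The subunits thus stood almost level with each other in every radiotherapy library.

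Counted by gene, 70 of the 83 lay below every control in radiotherapy replicate 1 (84.3%, against 63.2% of all features) and 74 in replicate 2 (89.2%, against 67.6%). In replicate 3 only 5 did (6.02%, against 30.9%), and 32 lay above every control (38.6%, against 31.5%). Above every control lay 2 genes in replicate 1 and 2 in replicate 2, against 10.0% and 8.44% of all features. Other values of these libraries moved along the same lines. Genes of the mitochondrial genome took 11.8%, 7.07% and 13.1% of TPM in the controls and 14.6%, 14.8% and 8.57% in the radiotherapy libraries. Libraries with more mitochondrial TPM had less ribosomal protein TPM, apart from control replicates 1 and 3, which were nearly level. Its part in the result was not tested. Ribosomal protein mRNAs are short, with a median length of 937 nt against 2789 nt for the other features, and features of like length stood as follows. Other features under 750 nt had medians of −0.27, −0.32 and −0.092 in the 3 radiotherapy libraries, and those of 750 to 1500 nt of −0.38, −0.45 and −0.013. The ribosomal protein genes lay below both classes in replicates 1 and 2 and above both in replicate 3, and the part of length was not tested.

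**Figure D3:**
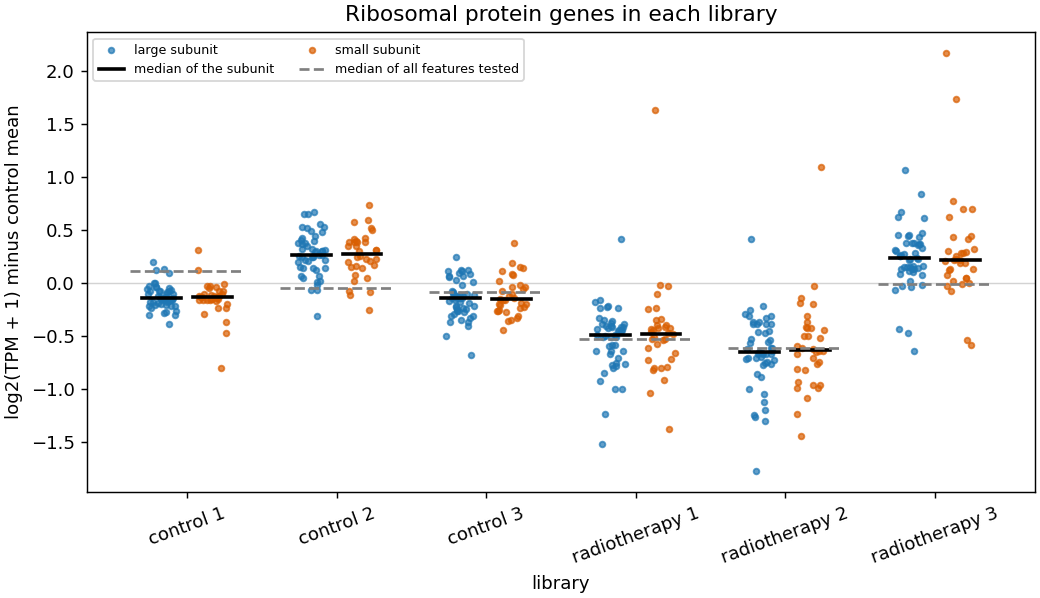
Each point is a tested ribosomal protein gene, placed by its log2(TPM + 1) in a library minus its control mean, with the large subunit in blue and the small subunit in orange for each of the 6 libraries. Solid lines are subunit medians, near −0.48 and −0.64 in radiotherapy replicates 1 and 2 and above 0 in replicate 3, and dashed lines are medians of all tested features.

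The 4 genes whose radiotherapy libraries all lay below the controls were Rps7, Rpl30, Rpl21 and Rps27l. Rps7, a small subunit protein that also binds MDM2, was at 306.01, 310.12 and 375.63 TPM in the controls and 126.65, 121.12 and 226.88 TPM after radiotherapy. All 3 radiotherapy libraries lay under the lowest control, with replicate 3 the nearest. The difference was −1.11 on the log2 scale (SE 0.32, limma adjusted p = 0.288). Its copy Rps7-ps3 was listed at 414.56, 630.17 and 487.35 TPM in the controls and 431.70, 453.25 and 668.77 TPM after radiotherapy. With copies added, the groups overlapped and the Rps7 difference was −0.34. The separation was thus seen in the row of the gene and not in the sum.

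Rpl30, a large subunit protein that in yeast binds its own transcript, was at 661.78, 737.35 and 795.06 TPM in the controls and 366.06, 296.28 and 526.89 TPM after radiotherapy. No radiotherapy library reached the lowest control. The difference was −0.92 (SE 0.29, limma adjusted p = 0.301), and −0.47 with overlapping groups once its copies were added. Rpl21, a large subunit protein, was at 119.61, 132.34 and 127.25 TPM in the controls and 62.90, 52.27 and 93.41 TPM after radiotherapy. Here too the controls lay close together and above all radiotherapy libraries. The difference was −0.89 (SE 0.30, limma adjusted p = 0.306), and −0.13 with overlapping groups once its 57 copies, which hold most of its level, were added. Rps7, Rpl30 and Rpl21 remained separated under median-of-ratios scaling, with differences of −0.69, −0.49 and −0.47.

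Rps27l, a p53-responsive paralogue of the zinc-binding protein Rps27, had no near-identical copy in the search. Adding copies therefore could not change its values and is no check of its separation. It was at 318.07, 535.72 and 405.43 TPM in the controls and 217.76, 210.58 and 274.11 TPM after radiotherapy. The 3 radiotherapy libraries lay close together and under the lowest control. The difference was −0.82 (SE 0.29, limma adjusted p = 0.324). Under median-of-ratios scaling the groups overlapped and the difference was −0.39.

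The 1 gene whose radiotherapy libraries all lay above the controls was Rps12l1. GENCODE vM21 annotates it as a pseudogene, and its transcript matches the coding sequence of Rps12, a small subunit protein, at 100% over 384 aligned bases. It was at 10.06, 24.65 and 23.97 TPM in the controls and 58.27, 39.99 and 85.03 TPM after radiotherapy. The lowest radiotherapy library lay above the highest control. The difference was 1.63 (SE 0.45, limma adjusted p = 0.28). Reads of Rps12 and Rps12l1 can be exchanged, and their sum was 1205.37, 1644.56 and 1206.85 TPM in the controls and 1349.79, 1234.52 and 2224.15 TPM after radiotherapy, with overlapping groups.

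**Figure D4:**
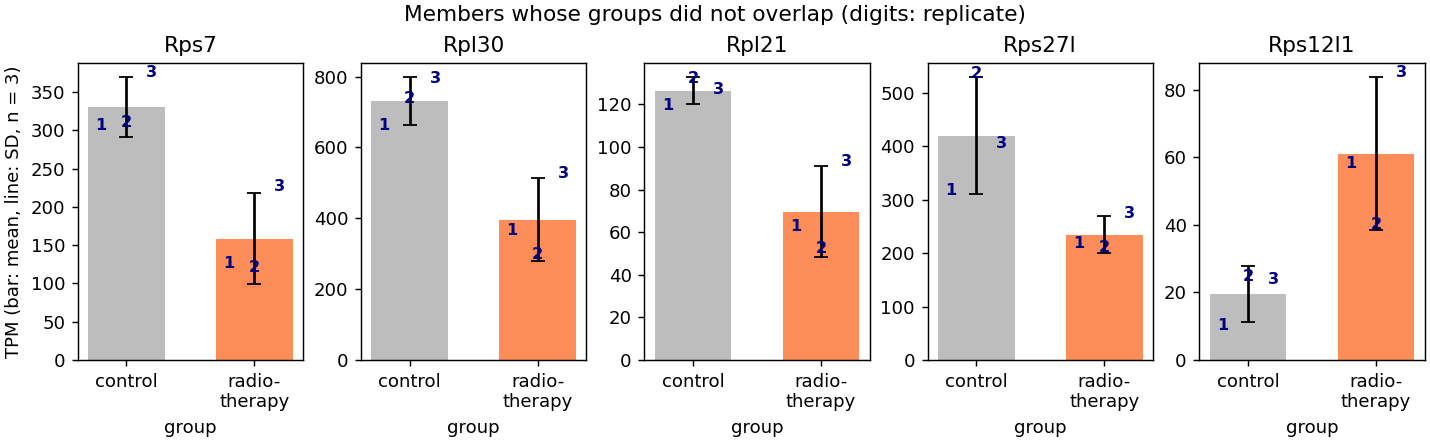
Bars are mean TPM of each group (control grey, radiotherapy orange), lines are the SD with n = 3, and digits mark the replicates of the 5 genes whose groups did not overlap, each on its own linear axis from 0. Rps12l1 lies higher in radiotherapy and Rps7, Rpl30, Rpl21 and Rps27l lower, with radiotherapy replicate 3 nearest the controls in those 4.

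Next by unadjusted p among genes that were lower came Rps15a and Rpl10a, whose groups overlapped through radiotherapy replicate 3. Rps15a, a small subunit protein, was at 1335, 1460 and 1524 TPM in the controls and 823, 724 and 1362 TPM after radiotherapy (difference −0.62, SE 0.29, limma adjusted p = 0.372). Rpl10a, the protein of the L1 stalk where spent tRNA leaves, was at 1790, 1706 and 1878 TPM in the controls and 763, 757 and 1928 TPM after radiotherapy (difference −0.79, SE 0.39, limma adjusted p = 0.389, and −0.62 with copies added). In both, radiotherapy replicates 1 and 2 lay far under the controls and replicate 3 among or above them. Apart from Rps12l1, the 5 genes with the smallest p among positive differences were below 0 without replicate 3. Rps4l, an annotated pseudogene, was at 3.43, 3.71 and 2.24 TPM in the controls and 2.45, 3.00 and 12.54 TPM after radiotherapy. Rpsa, the laminin receptor and a small subunit protein, was at 703.59, 979.76 and 718.90 TPM in the controls and 781.02, 695.42 and 1219.02 TPM after radiotherapy. Without replicate 3 the differences of Rps4l, Rps12, Rpsa, Rpl5 and Rps20 were −0.13, −0.086, −0.10, −0.20 and −0.22.

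Without radiotherapy replicate 3, 18 of the 83 genes fell and 0 rose at a limma adjusted p of 0.05, against 27.6% and 1.98% of all features. Their share, 18 of 83, was near that background, and their median difference of −0.55 was near the −0.57 of all features. The radiotherapy libraries lay below all controls in 70 genes and above in 2, against 58.8% and 6.17% of all features. The 10 large subunit genes that fell included Rpl10a, Rpl21, Rpl30, Rpl4, Rpl3, Rpl7, Rpl34, Rpl7a and Rpl36a. The 8 small subunit genes were Rps7, Rps6, Rps15a, Rps3, Rps4x, Rps9, Rps19 and Rps27l. The largest differences among them were those of Rpl3 at −1.64 (adjusted p = 0.0285), Rps7 at −1.40 (adjusted p = 0.012) and Rpl10a at −1.24 (adjusted p = 0.012), all from limma. Rps6, the small subunit protein phosphorylated by S6 kinases, was at 551.82, 662.91 and 493.51 TPM in the controls and 275.55, 239.32 and 694.73 TPM after radiotherapy, a difference of −1.14 without replicate 3 (limma adjusted p = 0.0168). Copies hold 48.7% of the summed Rps6 level, and with them that difference was −0.76 (limma adjusted p = 0.0272). Replicate 3 gave the highest Rps6 level of all 6 libraries. With copies added and replicate 3 left out, 18 genes fell as well, 13 of them the same, with Rpl5, Rps27, Rpl9, Rpl15 and Rps18 in place of Rps7, Rpl21, Rpl3, Rpl34 and Rpl36a. All features then gave 28.0% lower and 2.0% higher. The groups were separated downward in 72 genes and upward in 2, against 59.0% and 6.21%.

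Muscle carries both Rpl3, the protein beside the peptidyl transferase centre, and its muscle form Rpl3l, and their balance differed widely between the libraries. Rpl3l was at 326.34, 320.44 and 357.09 TPM in the controls and 444.59, 444.77 and 214.12 TPM after radiotherapy. Radiotherapy replicates 1 and 2 lay above the controls and replicate 3 below them. The difference was 0.061 (SE 0.35, limma adjusted p = 0.934), and 0.41 without replicate 3 (limma adjusted p = 0.0911). Rpl3 ran the other way, at 53.18, 72.25 and 30.27 TPM in the controls and 16.42, 13.63 and 88.38 TPM after radiotherapy. With its copies, mainly Rpl3-ps1, Rpl3 was at 150.93, 215.59 and 89.77 TPM in the controls and 60.80, 56.97 and 397.99 TPM after radiotherapy. The coding sequences of Rpl3 and Rpl3l are 74.43% identical over 1189 aligned bases, well under the 95% used for near-identical copies.

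Rpl3l made up 86.0%, 81.6% and 92.2% of the Rpl3 and Rpl3l total in control and 96.4%, 97.0% and 70.8% in radiotherapy. With the copies of Rpl3 counted, its share was 68.4%, 59.8% and 79.9% in control and 88.0%, 88.6% and 35.0% in radiotherapy. Radiotherapy replicates 1 and 2 had the highest shares and replicate 3 the lowest, under both ways of counting. The log2 ratio of Rpl3l to Rpl3 was 2.75 ± 0.70 (SD, n = 3) in control and 3.62 ± 2.05 (SD, n = 3) in radiotherapy, a difference of 0.88 (exact permutation test, two-sided, p = 0.5, adjusted over 5 pairs 0.833). With copies added it was 0.41 (exact permutation p = 0.8). As listed it was 2.05 without radiotherapy replicate 3, 0.35 and 0.22 without radiotherapy replicates 1 and 2, and 0.57 without control replicate 2. With 3 libraries against 3 this test cannot go below 0.1.

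**Figure D5:**
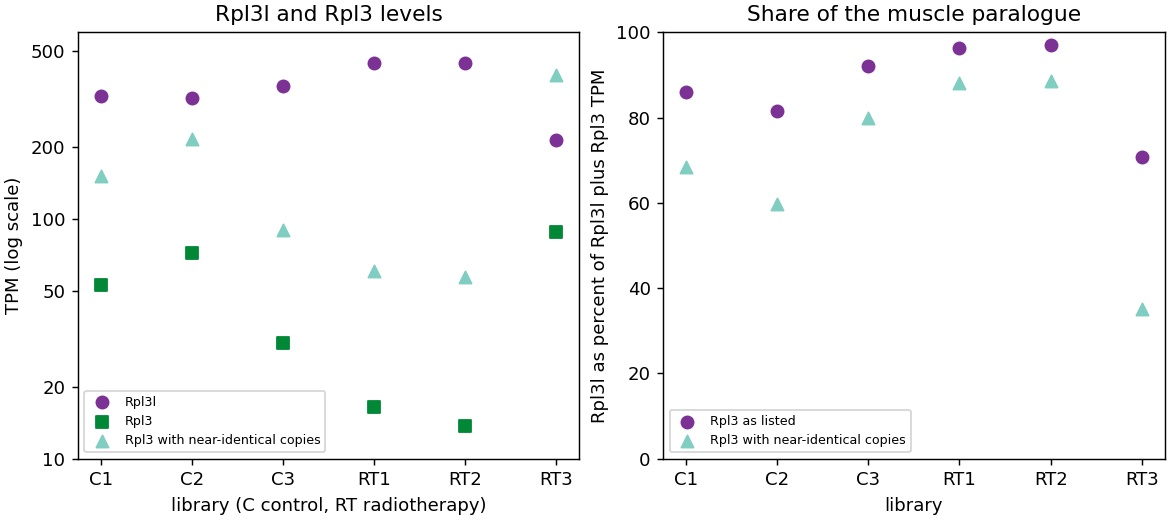
The left panel gives TPM on a log axis for Rpl3l, Rpl3 and Rpl3 summed with its near-identical copies in control (C) and radiotherapy (RT) libraries, and the right panel gives Rpl3l as a percent of the pair, with Rpl3 as listed or with copies. The share is highest in radiotherapy replicates 1 and 2, at 96.4% and 97.0% as listed, and lowest in replicate 3, at 70.8%.

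None of the 5 pairs of paralogue and parent gave an adjusted p under 0.5. Rps27 was at 1760, 4078 and 2035 TPM in the controls and 1681, 1392 and 3296 TPM after radiotherapy, with the highest level in control replicate 2. The log2 ratio of Rps27l to Rps27 differed by −0.51 (exact permutation p = 0.2, adjusted 0.5), and by −0.17 with copies added (exact permutation p = 0.8). Rpl22l1, a paralogue of the RNA-binding protein Rpl22, was at 72.14, 104.11 and 111.69 TPM in the controls and 53.67, 60.85 and 122.10 TPM after radiotherapy. It held 13.4%, 14.4% and 19.0% of the pair in control and 12.8%, 15.8% and 16.1% in radiotherapy, and the log2 ratio differed by −0.069 (exact permutation p = 0.8). Both members of that pair lay below all controls in radiotherapy replicates 1 and 2, as did Rpl7 and Rpl7l1, a paralogue known for a part in ribosome assembly. Among the controls, the genes of each pair did not keep the same order. Rpl7l1 was at 14.99, 22.44 and 14.06 TPM in the controls and 10.85, 9.45 and 22.08 TPM after radiotherapy. Its log2 ratio to Rpl7 differed by 0.057 (exact permutation p = 0.9). Rps4l was 0.356% to 1.58% of its pair with Rps4x, and its log2 ratio to Rps4x was higher in all 3 radiotherapy libraries (difference 0.91, exact permutation p = 0.1, adjusted 0.5). Rpl39l, mainly a testis form, was at 0.22, 0 and 0 TPM in the controls and 0.35, 0.07 and 0.87 TPM after radiotherapy and was not tested, nor was Rpl10l, also a testis form.

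By role in the ribosome, none of the groups had a gene past the adjusted threshold, and without radiotherapy replicate 3 every group had a median difference below 0. Over all features, 19.3% were separated downward, and 27.6% fell without replicate 3, with a median of −0.57. The counts below are to be read against these shares. Of the 4 genes of the stalk that recruits elongation factors (Rplp0, Rplp1, Rplp2 and Rpl12), 0 were separated and the median difference was −0.15. Rplp0 was at 1062.76, 1420.89 and 982.67 TPM in the controls and 800.18, 631.72 and 1340.31 TPM after radiotherapy. Rplp2 was at 581.89, 933.43 and 502.40 TPM in the controls and 487.11, 386.71 and 1030.23 TPM after radiotherapy. In both, replicates 1 and 2 lay below all controls and replicate 3 near or above the highest. Copies hold 13.2% of the summed Rplp0 level and 98.3% of the summed Rpl12 level. Rpl12 enters the stalk median of −0.15 as listed, with a difference of 0.0064.

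Rpl5 and Rpl11 join the smallest ribosomal RNA of the large subunit before it enters the ribosome and are known to bind MDM2 when assembly fails. Rpl11 was at 737.24, 1133.43 and 755.91 TPM in the controls and 655.11, 618.47 and 1114.15 TPM after radiotherapy, again with replicates 1 and 2 the lowest. With copies, which hold 44.4% of its sum, it was at 1453.27, 2167.77 and 1418.42 TPM in the controls and 1051.41, 1037.12 and 1893.64 TPM after radiotherapy. The 3 genes near the peptidyl transferase centre, Rpl3, Rpl8 and Rpl10, had a median difference of −0.53, and 1 of them, Rpl3, fell without replicate 3, though with its copies added it did not pass (−1.27, limma adjusted p = 0.051). Rpl10, which is added late to the large subunit, was at 264.31, 511.91 and 256.96 TPM in the controls and 181.67, 141.95 and 445.30 TPM after radiotherapy. With copies, which hold 71.5% of its sum, it was at 1013.41, 1647.53 and 890.35 TPM in the controls and 680.72, 583.06 and 1504.48 TPM after radiotherapy, again lowest in replicates 1 and 2. The 10 genes listed for the tunnel through which the new chain leaves, its exit included, had a median of −0.21, and 1, Rpl4, fell without replicate 3.

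In the small subunit, the 5 genes at the mRNA entry and decoding site (Rps2, Rps3, Rps9, Rps15 and Rps23) had a median difference of −0.38, and Rps3 and Rps9 fell without replicate 3, 2 of 5 against 27.6% of all features. Rps3, which grips the incoming mRNA, was at 590.01, 557.60 and 663.45 TPM in the controls and 341.19, 314.31 and 603.14 TPM after radiotherapy. Rps9 was at 1202.49, 1439.98 and 1070.88 TPM in the controls and 705.04, 620.22 and 1493.06 TPM after radiotherapy. Copies added nothing to Rps3 and under 1 TPM to Rps9, and in both the groups overlapped only through replicate 3. For Rps23 and Rps2, which enter the median as listed, copies hold 68.5% and 39.6% of the summed level. The 4 genes at the mRNA exit, such as Rps14 and Rps26, had a median of −0.27 and none of them passed with or without replicate 3. Of 10 genes mutated in Diamond-Blackfan anaemia, an inherited failure of red cell production, 1 was separated (Rps7), the median was −0.21, and 2 (Rps7 and Rps19) fell without replicate 3. Both counts lay under the shares of all features, 19.3% and 27.6%. Rps19 was at 351.55, 540.44 and 373.76 TPM in the controls and 239.01, 195.26 and 405.85 TPM after radiotherapy.

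The next 4 lists place these genes among others of the same pathway, with 0 genes past the adjusted threshold in each. Beside them, 78.5% of all features had a difference below 0, 19.3% were separated downward and 27.6% fell without replicate 3, with medians of −0.36 over all libraries and −0.57 without it. The 4 ribosomal genes listed that the naming rule misses include Fau, Rpl36al and Rack1. Fau, which encodes a ubiquitin-like protein fused to a small subunit protein, was at 510, 787 and 443 TPM in the controls and 434, 369 and 860 TPM after radiotherapy, the pattern of the ribosomal protein genes. The median of the 4 was −0.10, and none passed without replicate 3.

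Of 15 other genes known to carry the pyrimidine tract, mostly elongation and initiation factors, 13 had a difference below 0, 3 were separated, near the 19.3% of all features, and the median was −0.49. Without replicate 3, 7 of the 15 fell, against 27.6% of all features. Eif3e, an initiation factor subunit, was at 149.72, 151.73 and 167.89 TPM in the controls and 53.85, 56.97 and 112.99 TPM after radiotherapy (difference −1.14, limma adjusted p = 0.299). Eif4b, a cofactor of the helicase that unwinds mRNA, was at 99.87, 95.80 and 92.37 TPM in the controls and 29.06, 29.24 and 75.78 TPM after radiotherapy (difference −1.24, limma adjusted p = 0.306). Tpt1, a highly expressed calcium-binding protein, was at 3689, 4831 and 4405 TPM in the controls and 2854, 2832 and 3155 TPM after radiotherapy (difference −0.54, limma adjusted p = 0.33). In these 3 all radiotherapy libraries lay under all controls, replicate 3 included.

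Genes that build the ribosome had a median difference of −1.02 without replicate 3, beside the −0.55 of its protein genes and the −0.57 of all features. Of 43 tested ribosome biogenesis genes, 41 had a difference below 0, 3 were separated, the median with all libraries was −0.61, and 30 fell without replicate 3, against 78.5%, 19.3%, −0.36 and 27.6% for all features. Dkc1, the pseudouridine synthase of ribosomal RNA, was at 13.55, 8.93 and 12.33 TPM in the controls and 6.47, 4.76 and 6.91 TPM after radiotherapy. Ddx18, a nucleolar helicase, was at 19.16, 22.82 and 16.91 TPM in the controls and 6.63, 4.82 and 16.60 TPM after radiotherapy. Both were separated, Ddx18 only narrowly because of replicate 3. Of 13 genes of RNA polymerase I and its factors, 12 were below 0, 2 were separated, the median was −0.53, and 8 fell without replicate 3 (all features 27.6%). Taf1b, a subunit of the factor that recruits the polymerase, was at 7.46, 7.38 and 9.46 TPM in the controls and 3.50, 5.18 and 5.84 TPM after radiotherapy. Of 17 regulators of tract-bearing mRNAs, such as Larp1 and the mTOR complex, 16 were below 0, 3 were separated, the median was −0.60, and 9 fell without replicate 3. For all features 19.3% were separated and 27.6% fell. Tia1, which binds these mRNAs under stress, was at 7.39, 5.05 and 8.53 TPM in the controls and 5.03, 4.63 and 3.08 TPM after radiotherapy. Whether these lists differ from the ribosomal protein genes was not tested.

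The markers of other cells of the muscle stood as follows beside these values. The sum of 8 fibroblast markers ran from 116 to 184 TPM in the controls and from 105 to 179 TPM after radiotherapy, of 8 macrophage markers from 40.1 to 121 TPM and from 49.2 to 199 TPM, and of 7 endothelial markers from 76.5 to 90.8 TPM and from 53.7 to 165 TPM. The fibroblast sum is mostly Dcn. Of the 8 fibroblast markers, 3 (Col1a1, Col3a1 and Pi16) had all radiotherapy libraries above all controls, the median difference was 0.54, and 4 rose without replicate 3. Col3a1 was at 4.01, 3.39 and 4.18 TPM in the controls and 19.82, 19.88 and 8.27 TPM after radiotherapy. The highest macrophage and endothelial sums were those of radiotherapy replicate 3, which also had the highest ribosomal protein share of its group. That macrophage sum is mostly Cd68 (120.92 TPM). Csf1r was also above all controls there, whereas Adgre1, Mrc1, Cd163, C1qa, C1qb and C1qc lay within the control range. Of the endothelial markers in replicate 3, Cldn5 (59.42 TPM), Cdh5 (37.95 TPM) and Emcn (19.91 TPM) lay above all controls. Tek (1.88 TPM) and Kdr (2.20 TPM) lay below them, and Pecam1 and Flt1 among them. The sum of 6 tendon markers ran from 8.23 to 18.7 TPM and from 8.8 to 54.8 TPM, of 5 smooth muscle markers from 81.3 to 112 TPM and from 126 to 167 TPM, of 5 satellite cell markers from 2.0 to 8.67 TPM and from 1.32 to 1.67 TPM, and of 5 erythroid markers from 312 to 1400 TPM and from 847 to 1310 TPM. In the controls the satellite cell sum is mostly Vcam1 (7.85, 1.53 and 1.57 TPM), the only 1 of the 5 that reached a mean of 1 TPM. Pax7 averaged 0.0833 TPM in control and 0.0867 TPM after radiotherapy, Myf5 0.343 and 0.11 TPM, Chodl 0.287 and 0.6 TPM, and Calcr 0 and 0.0233 TPM. The part of these cell markers in the ribosomal protein values was not tested.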

How the data were processed

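RNA-seq of 3 control and 3 radiotherapy muscle libraries (TruSeq kit, total RNA, per the labels' protocols) was used as the TPM table the authors deposited. The submitters' processing notes name HISAT2, StringTie, RSEM and the build mm9, with no roles or versions, and the sources used here do not give the annotation release. No counts were used, so depth is unknown and no detection limit is given. Groups came from the labels. The 11938 features averaging 1 TPM or more were tested two-sided on log2(TPM + 1), which understates changes of low genes, with limma 3.58.1 (empirical Bayes with trend, R 4.3.3), adjusted by Benjamini-Hochberg over all features. Ratios of paralogues were tested by exact permutation. Near-identical copies were found with BLAST 2.17.0 in GENCODE vM21 transcripts (GRCm38), and start sequences come from the RefSeq table of GRCm38.p6, not from the authors' build. The planned comparison of protein sequences was not run; coding sequences were compared instead. The test was checked on simulated data with independent noise per gene and no shift shared by a whole library. Named genes were the paralogues and parents, the 3 highest and 3 lowest of each subunit, up to 6 with the smallest p in each direction, role genes as examples and up to 3 of each further list, a choice of those being printed. Some genes that the rule names are not reported here. Rps6 and Rps19 were named after their values were seen. The members and lists were chosen with earlier results of these data known. Alternatives were other pseudocounts, filters, scalings, limma options, a replicate block and each library left out; summing near-identical copies was added after seeing the data.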

Additional observations from a re-analysis of the deposited data

How the results depend on the processing

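No tested setting gave a ribosomal protein gene past the adjusted p of 0.05 except leaving out radiotherapy replicate 3, which gave 18 lower as listed and 18 with copies added, the summing of copies being chosen after seeing the data. In those settings 27.6% and 28.0% of all features were lower. Genes with all radiotherapy libraries above all controls numbered 1 in the reported analysis, 4 with median-of-ratios scaling, 3 when rescaled without mitochondrial and the 20 most abundant genes, 5 with quantile normalisation, 1 to 2 with 1 library left out, and 2 with copies added and replicate 3 left out. Genes below all controls numbered 4, and 9 and 11 under the rescaling and quantile normalisation, 1 with copies added, 72 with copies added and replicate 3 left out, and 4 to 70 with 1 library left out (7 without control replicate 1, 70 without radiotherapy replicate 3). Of all 11938 features, 206 were separated upward and 2299 downward in the reported analysis. These counts were 828 and 1188 with median-of-ratios scaling, 397 and 1965 under the rescaling, and 937 and 1312 under quantile normalisation. With 1 library left out they were 278 to 736 upward and 2469 to 7020 downward (2492 without control replicate 1). With copies added they were 206 and 2286 of 11856, and 736 and 6990 with replicate 3 also left out. Median-of-ratios scaling moved the median differences to 0.14 for all members, 0.15 for the large and 0.12 for the small subunit, since it raised the centre of all features. The median for all members ranged from −0.55 to −0.13 with 1 library left out (−0.16 without control replicate 2) and was −0.082 under the rescaling and −0.12 under quantile normalisation. With 1 library left out, the ratio of Rpl3l to Rpl3 ranged from 0.22 to 2.05, and the ratio of Rpl7l1 to Rpl7 ranged from −0.12 to 0.26 and was negative without control replicate 3 (−0.12) or radiotherapy replicate 3 (−0.020). That of Rpl22l1 to Rpl22 ranged from −0.19 to 0.11 and was positive without control replicate 3 (0.11) or radiotherapy replicate 1 (0.052). Single genes ranged from −0.13 to 0.85 (Rps4l), −0.086 to 0.33 (Rps12), −0.10 to 0.30 (Rpsa), −0.20 to 0.22 (Rpl5) and −0.22 to 0.39 (Rps20), each lowest without radiotherapy replicate 3. Rpl3l ranged from −0.11 to 0.41 and was negative without either radiotherapy replicate 1 or 2. Rpl5 was also negative without control replicate 2 (−0.080) and Rps20 without control replicate 1 (−0.057) or 3 (−0.068). With copies added Rpl5 was −0.39 and Rps20 −0.26. With copies added and replicate 3 left out, Rps4l, Rps12, Rpsa, Rpl5 and Rps20 were −0.13, −0.069, −0.10, −0.73 and −0.54. Apart from the left-out library, the cause was not tested. Deviations from the group means correlated at −0.045, −0.112 and −0.201 between same-numbered libraries. With 3 libraries a group these values cannot show whether the replicate numbers pair the samples, and the labels do not say. With the replicate number as a block, 0 members passed and 1 was higher and 1 lower at an unadjusted p of 0.05. Of all 11938 features, 4 passed upward and 0 downward, and 118 were higher and 824 lower at that unadjusted p. The number of libraries, 3 a group, limits every test.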

Other observations

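Some genes with identical coding sequences were listed high in libraries where a copy was low. Rps27rt, an intronless copy of Rps27 with 100% identity over its coding sequence, was listed at 890.68, 144.01 and 969.25 TPM in the controls and 58.24, 88.78 and 71.75 TPM after radiotherapy. Control replicate 2, where Rps27rt was low, had the highest Rps27 level of the 6 libraries, 4078 TPM. Rps27 stayed above Rps27rt in every library, and Rps27 with its copies was also highest in control replicate 2 (4223.67 TPM). Rpl27-ps3 and Gm11518, both with 100% identity to the coding sequence of Rpl27, changed places between libraries of the same group. Rpl27-ps3 was at 104.90, 26.81 and 285.44 TPM in the controls and 331.29, 179.17 and 27.13 TPM after radiotherapy, and Gm11518 at 213.27, 536.26 and 65.52 TPM and 42.68, 149.00 and 402.55 TPM. Where one was high the other was low. These copies were chosen after their values were seen, and how the reads were shared among them was not tested.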
